A study of Mus musculus with 20 samples.

Results

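The genes examined here are those of MHC class II antigen presentation, in tumours grown in the mouse caecum and treated with galunisertib, an inhibitor of the kinase of the TGF-beta type I receptor. The members are H2-Aa, H2-Ab1, H2-Eb1, H2-DMa, H2-DMb1, Cd74 and Ciita, which make 7 of the 17097 genes with a named probe set. They were chosen by function, with earlier results of these data known. For each, the probe set with a single gene symbol and the highest mean level was used. All 7 lay above the limit for dim signals and were among the 15556 genes tested.

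The study transplanted mouse tumour organoid (MTO) lines into syngeneic C57BL/6J mice and hybridised RNA from whole tumour fragments, 1 tumour per array, for 20 tumours in all. Mice received galunisertib by gavage, 10 mg 2 times per day from day 11 until sacrifice at week 5, or served as controls. Each of 5 lines gave 2 treated and 2 control tumours, which the design text calls biological replicates. The 4 tumours of a line were hybridised on 1 array strip, which means that effects of line and of strip cannot be told apart. Each treated pair, however, shared its strip with the control pair of its line. MTO68 and MTO93 were parental lines of genotype LAKTP, MTO140 was an LAKTP line of type LiM, MTO54 a parental LAKP line and MTO207 a parental LAKT line, and the labels do not spell out these letters. Each line is a single organoid culture. MTO140 was injected as spheroids under the serosa of the caecum, whereas pieces of tumours first grown under the skin were placed on the caecum for the other lines, so line and route cannot be told apart for MTO140 either. Values are log2 RMA levels, a scale on which a difference of 1 is a doubling of signal.

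MHC class II molecules are pairs of an alpha and a beta chain that carry peptides from endosomes to the cell surface, where CD4 T cells read them. Dendritic cells, B cells and macrophages make them constantly, and epithelial cells of the gut can be induced to do so by interferon-gamma. H2-Aa and H2-Ab1 encode the alpha and beta chain of I-A, and H2-Eb1 encodes the beta chain of I-E. C57BL/6 mice lack I-E at the surface, because a deletion removes the promoter of its alpha chain gene H2-Ea. Cd74 encodes the invariant chain that blocks the peptide groove until the endosome is reached, and H2-DMa and H2-DMb1 encode the chains of H2-M, which then exchanges the remnant of Cd74 for peptide. Ciita encodes the coactivator that switches class II genes on through factors bound to paired promoter elements named X and Y.

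The promoters of 4 members are held in the RefSeq-derived windows of build GRCm38.p6, which span 250 bases before to 50 bases after a gene's start. H2-Ab1, Cd74 and Ciita are named only. The windows of H2-Aa, H2-Eb1 and H2-DMb1 are shown because these genes moved together across tumours, and that of H2-DMa as a member that moved with them. They lie at chr17:34287774-34288073 on the minus strand for H2-Aa and, on the plus strand, at chr17:34305617-34305916 for H2-Eb1, chr17:34152941-34153240 for H2-DMb1 and chr17:34125268-34125567 for H2-DMa, which has a further window at chr17:34122582-34122881. Each window holds the upstream sequence and the beginning of the transcript, and each is written on the strand of the gene. Capitals mark the letters CTNGNAACT, a form of the X element, and TGATTGG, a form of the Y element that contains a reversed CCAAT.
H2-Aa: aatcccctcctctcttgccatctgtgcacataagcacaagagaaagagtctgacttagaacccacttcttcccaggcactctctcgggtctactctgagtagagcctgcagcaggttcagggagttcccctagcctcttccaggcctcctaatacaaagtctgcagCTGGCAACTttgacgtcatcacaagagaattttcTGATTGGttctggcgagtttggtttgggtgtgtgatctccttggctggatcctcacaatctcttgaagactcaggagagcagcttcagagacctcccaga
H2-Eb1: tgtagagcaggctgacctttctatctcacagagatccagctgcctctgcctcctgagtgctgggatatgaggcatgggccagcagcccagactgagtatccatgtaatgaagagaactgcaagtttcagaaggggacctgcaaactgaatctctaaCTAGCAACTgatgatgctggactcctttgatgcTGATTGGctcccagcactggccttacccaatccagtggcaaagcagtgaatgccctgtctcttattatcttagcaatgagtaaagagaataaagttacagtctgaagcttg
H2-DMb1: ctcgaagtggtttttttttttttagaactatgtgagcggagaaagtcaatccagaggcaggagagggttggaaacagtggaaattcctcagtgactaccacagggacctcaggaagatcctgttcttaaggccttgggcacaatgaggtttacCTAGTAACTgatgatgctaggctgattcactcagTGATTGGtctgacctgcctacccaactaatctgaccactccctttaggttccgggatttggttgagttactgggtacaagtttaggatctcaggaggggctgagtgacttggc
H2-DMa: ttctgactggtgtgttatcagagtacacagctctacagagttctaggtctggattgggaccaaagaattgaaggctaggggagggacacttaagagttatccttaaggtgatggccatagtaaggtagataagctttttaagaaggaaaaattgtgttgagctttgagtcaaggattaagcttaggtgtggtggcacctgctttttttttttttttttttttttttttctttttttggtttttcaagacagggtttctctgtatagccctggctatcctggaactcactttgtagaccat

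In H2-Aa the X letters began 84 bases and the Y letters 50 bases upstream of the start. In H2-Eb1 they began 94 and 61 bases upstream, and in H2-DMb1 97 and 63 bases upstream. The stretch between them was 25, 24 and 25 bases long in H2-Aa, H2-Eb1 and H2-DMb1, in that order. Neither of the windows of H2-DMa held either motif. Other forms of the elements, or elements outside the windows, would have been missed, so this does not show that H2-DMa lacks them. Both strands of all 32851 windows were searched, and the motifs do not overlap each other. The X letters stood in 4.1% and the Y letters in 7.82% of windows. X followed by Y within 30 bases on the strand of the gene stood in 5 windows (0.0152%), those of H2-Aa, H2-Eb1, H2-DMb1, 1700048F04Rik and BC051142. The letters were chosen after these windows had been read, so the share describes the motif and tests nothing. The windows of the related genes H2-DMb2, H2-Oa, H2-Ob and H2-Eb2 held the Y letters and not the X letters.

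Array medians lay between 4.93 and 5.12, and the values on 1 array had an SD of 1.46 to 1.83. The pair of control tumours of MTO68 differed most from each other, with a median gap of 0.51 over all genes and array SDs of 1.76 and 1.47, so the main results that rest on MTO68 are also given without its control replicate 2. In these whole fragments 10 epithelial, 12 macrophage, 10 dendritic cell, 9 B cell and 8 T cell markers exceeded the limit for dim signals on the required 2 arrays or more. That limit is the 25th percentile of all values, so passing it does not show that a cell type was present. A lower level in such bulk RNA can come from fewer cells of a type or from less RNA per cell, and these cannot be told apart. Precision was limited by how few arrays each group had.

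**Figure D1:**
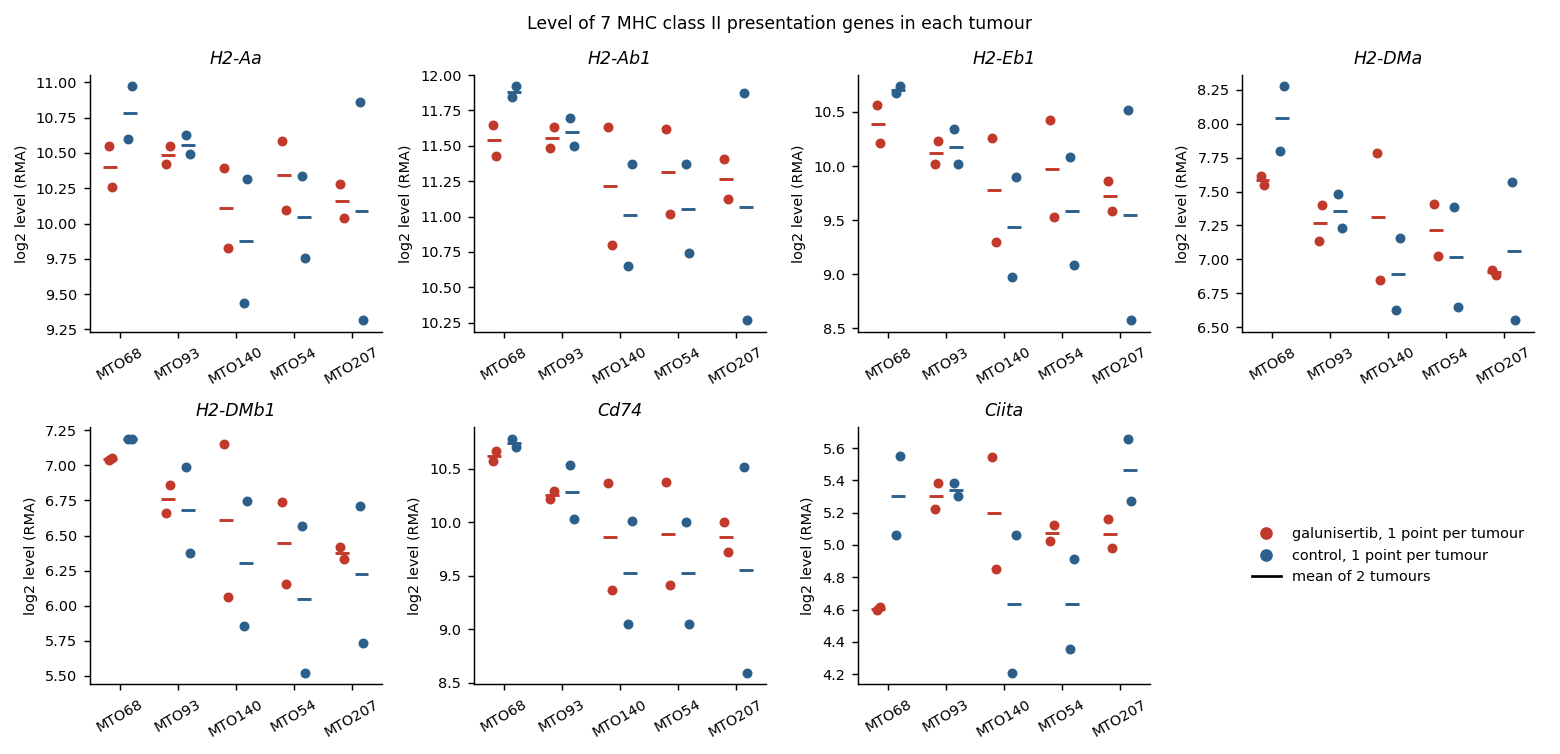
Log2 level of each of 7 class II presentation genes (y axis, 1 panel per gene with its own scale) in each tumour of 5 lines (x axis), with galunisertib in red left of control in blue, 1 point per tumour and a bar for the mean of 2 tumours. Treated tumours of MTO68 lie below its control tumours in all 7 panels, and in the other lines the 2 groups overlap for every gene but Ciita in MTO54 and MTO207.

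Over the 5 lines together, no member differed between treated and control tumours beyond the spread between tumours. H2-Aa lay between 9.83 and 10.58 in treated tumours (median 10.33) and between 9.32 and 10.97 in control tumours (median 10.41.) The treated range fell inside the control range. Limma, with the line as a block, gave a log2 difference of 0.03 (SE 0.17, 95% interval -0.34 to 0.39, adjusted p = 0.955). H2-Ab1 lay between 10.80 and 11.65 in treated tumours (median 11.46) and between 10.27 and 11.92 in control tumours (median 11.44.) Its difference was 0.05 (SE 0.18, 95% interval -0.32 to 0.42, limma adjusted p = 0.917). H2-Eb1 lay between 9.30 and 10.56 in treated tumours (median 10.12) and between 8.57 and 10.74 in control tumours (median 10.05.) For this chain gene, too, the treated values lay within the span of the control values, and the difference was 0.11 (SE 0.22, 95% interval -0.36 to 0.58, limma adjusted p = 0.876).

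The accessory genes and Ciita did not pass this test either. H2-DMa, of the H2-M alpha chain, lay between 6.85 and 7.78 in treated tumours (median 7.27) and between 6.55 and 8.27 in control tumours (median 7.31), a difference of -0.02 (SE 0.16, limma adjusted p = 0.972). H2-DMb1, of the H2-M beta chain, lay between 6.06 and 7.15 in treated tumours (median 6.70) and between 5.52 and 7.19 in control tumours (median 6.64), a difference of 0.16 (SE 0.18, limma adjusted p = 0.786). Cd74, the invariant chain gene, lay between 9.36 and 10.67 in treated tumours (median 10.25) and between 8.59 and 10.78 in control tumours (median 10.02.) Its difference of 0.17 (SE 0.22, limma adjusted p = 0.808) was the largest among the members, and its 95% interval ran from -0.29 to 0.64. For the coactivator gene Ciita, levels lay between 4.60 and 5.54 in treated tumours (median 5.07) and between 4.21 and 5.66 in control tumours (median 5.17.) Its lowest control value stood just above the limit for dim signals, which was 4.16. The difference of Ciita was -0.03 (SE 0.16, 95% interval -0.36 to 0.31, limma adjusted p = 0.953).

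Limma thus called 0 of 7 members over the 5 lines at an adjusted p under 0.05, where it called 0% of the genes tested, and 0 of 7 members against 1238 of 15556 genes had an unadjusted p under 0.05. Means were higher in treated tumours for 5 members and lower for 2, with a median difference of 0.05, against a median of 0.0012 over all genes. Exact permutation of treatment within lines, over every arrangement and with a smallest possible p of 0.000257, gave two-sided p-values between 0.421 for H2-DMb1 and 0.918 for H2-DMa. None of the members was higher in 5 of 5 lines or lower in 5 of 5 lines, which 3.75% and 3.28% of genes were. The intervals do not show an absence of effect, since differences of up to 0.64 for Cd74 lay within them. Single tumours set the sign of small differences. Without MTO207 control replicate 2 the differences were -0.09 for H2-Aa, -0.07 for H2-Ab1, -0.04 for H2-Eb1 and 0.03 for Cd74, and without MTO68 control replicate 2 they were 0.05 for H2-DMa and 0.06 for Ciita.

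**Figure D2:**
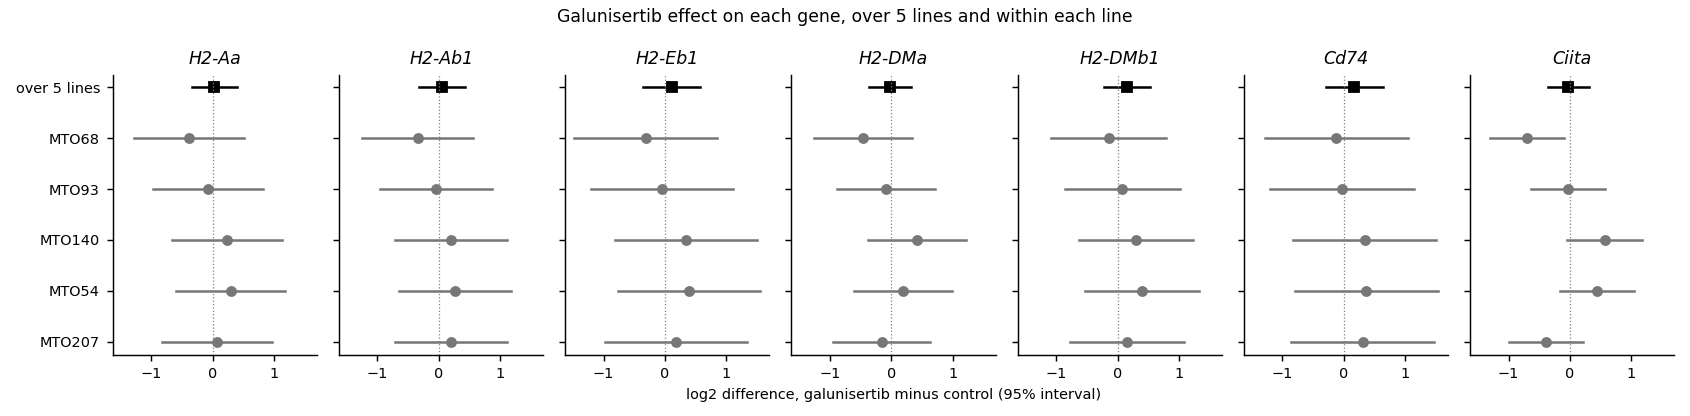
Log2 difference, galunisertib minus control, of each gene (x axis, with 95% interval) over 5 lines (black square) and within each line (grey circles), from limma. All 7 intervals over 5 lines include 0, and within lines the interval of Ciita in MTO68, from -1.30 to -0.10, is the single one that does not.

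Within MTO68, all 7 members were lower in both treated tumours than in both control tumours, and none passed after adjustment. Ciita was at 4.60 and 4.61 in treated tumours, against 5.06 and 5.55 in control tumours. H2-DMa was at 7.62 and 7.55 in treated tumours, against 7.80 and 8.27 in control tumours. H2-Aa was at 10.55 and 10.26 in treated tumours, against 10.60 and 10.97 in control tumours. The groups did not overlap for these genes, although the gap between the nearest tumours of H2-Aa was small. H2-Ab1 was at 11.65 and 11.43 in treated tumours, against 11.85 and 11.92 in control tumours. H2-Eb1 was at 10.56 and 10.22 in treated tumours, against 10.67 and 10.74 in control tumours. For both I-A and I-E beta chain genes the treated tumours were again the lower pair. H2-DMb1 was at 7.04 and 7.05 in treated tumours, against 7.19 in each control tumour. Cd74 was at 10.57 and 10.67 in treated tumours, against 10.78 and 10.70 in control tumours, the smallest separation in this line.

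The difference of Ciita in MTO68 was -0.70 (SE 0.28, limma adjusted p = 0.12), and those of the other members ran from -0.46 for H2-DMa to -0.12 for Cd74 (limma adjusted p = 0.365 to 0.874). Limma called 0 of 7 members, against 2.01% of genes in this line, and Ciita alone had an unadjusted limma p under 0.05, at 0.0259. Groups that did not overlap in the lower direction were seen for 7 of 7 members and for 23.2% of genes, those in the higher direction for 0 of 7 members and 31.2% of genes, and the members' agreement is not 7 separate observations, since their levels varied together across tumours. Without MTO68 control replicate 2 the 7 differences lay between -0.46 for Ciita and -0.15 for H2-DMb1. Their signs could not change, because the groups did not overlap for any member, so the like signs add nothing. Without MTO68 control replicate 1 the difference of Ciita was -0.94, in a fit that takes the lone control tumour to vary like the other groups. Probe sets of the same gene did not all give this result. The other probe sets of H2-Aa differed by 0.03 and -0.24, while those of Ciita differed by -0.57 and -0.42.

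Cell type markers in MTO68 did not all point one way. B cell markers were lower in treated tumours for 8 of 9 genes, with list scores (the mean of gene levels, each centred on its mean) of -0.38 and -0.01 in treated tumours, against -0.24 and 0.14 in control tumours. T cell markers were lower for 7 of 8 genes, with scores of -0.05 and 0.13 in treated tumours, against 0.13 and 0.48 in control tumours. Dendritic cell markers were lower for 8 of 10 genes, and macrophage markers were higher for 9 of 12. The interferon-gamma response list was higher for 7 of 13 genes in MTO68, with scores of 0.53 and 1.26 in treated tumours, against 0.98 and 0.57 in control tumours. Without MTO68 control replicate 2, a comparison added after seeing the data, most of these marker directions changed. The 7 members could only stay lower, because their groups did not overlap, so this is no contrast with the markers. B cell markers were then lower for 3 of 9 genes, T cell markers for 5 of 8 and dendritic cell markers for 2 of 10, while macrophage markers were higher for 3 of 12 and interferon-gamma response genes for 5 of 13. The part of these cell types in the class II difference was not tested.

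In MTO93 the members hardly differed. Their differences ran from -0.09 for H2-DMa to 0.08 for H2-DMb1, 6 of 7 were negative, and limma called 0 of 7, as it called 0% of genes in this line. H2-Aa, for example, was at 10.42 and 10.55 in treated tumours, against 10.62 and 10.49 in control tumours. The groups overlapped for 7 of 7 members, whereas 14.4% of genes were lower and 18.1% higher in both treated tumours than in both control tumours. In MTO140 and MTO54 all 7 differences were positive and none passed, where limma called 0.00643% and 0% of genes. The SE of a difference within a line was between 0.28 for Ciita and 0.54 for Cd74, so only large differences could have passed.

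In MTO140, Cd74 was at 10.37 and 9.36 in treated tumours, against 9.05 and 10.01 in control tumours, a difference of 0.34 (SE 0.54, limma adjusted p = 1). Ciita was at 5.54 and 4.85 in treated tumours, against 4.21 and 5.06 in control tumours, a difference of 0.56 (SE 0.28, limma adjusted p = 1). Each group of this line held a high and a low tumour, and the groups overlapped for all members, whereas 12.6% of genes were lower and 8.32% higher in both treated tumours. In MTO54, Cd74 was at 10.37 and 9.41 in treated tumours, against 10.00 and 9.05 in control tumours, a difference of 0.36 (SE 0.54, limma adjusted p = 0.999). Ciita was at 5.02 and 5.13 in treated tumours, against 4.36 and 4.92 in control tumours, a difference of 0.44 (SE 0.28, limma adjusted p = 0.999). It was the single member whose groups did not overlap there, with both treated tumours higher, as for 17.8% of genes, while both were lower for 0 of 7 members and 16.4% of genes. Single tumours set the sign for Cd74, while that of Ciita was positive with any 1 tumour left out. In MTO54 the sign of Ciita could not change, because its groups did not overlap. The difference of Cd74 in MTO140 was -0.14 without control replicate 1 and -0.16 without treated replicate 1, and in MTO54 it was -0.11 without control replicate 2 and -0.12 without treated replicate 1.

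In MTO207 the members split, with 5 higher and 2 lower in treated tumours and 0 of 7 called by limma, which called 0% of genes. Cd74 was at 10.00 and 9.72 in treated tumours, against 10.52 and 8.59 in control tumours. H2-Eb1 was at 9.86 and 9.58 in treated tumours, against 10.52 and 8.57 in control tumours. The treated tumours of both genes lay between a high and a low control tumour. Ciita was at 5.16 and 4.98 in treated tumours, against 5.66 and 5.27 in control tumours, a difference of -0.40 (SE 0.28, limma adjusted p = 0.668). For Ciita both treated tumours were lower, as for 31.6% of genes, while both were higher for 0 of 7 members and 26.3% of genes. Without control replicate 2, the low tumour, 7 of 7 differences in this line were negative, between -0.80 for H2-Eb1 and -0.34 for H2-DMb1, and none passed.

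Whether the treatment effect differed between lines was tested with an F test over the 5 effects. Limma called 0 of 7 members and 0.0643% of genes. Ciita had F = 3.64 with an unadjusted limma p of 0.0308 and an adjusted p of 0.563, and the other 6 members had unadjusted limma p-values of 0.529 or more. The negative effect on Ciita in MTO68 and the positive ones in MTO140 and MTO54 are thus not shown to differ once all genes are counted.

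Across lines, MTO68 had the highest mean over its 4 tumours for 6 members and MTO93 the second highest, and Ciita was the exception. H2-Aa averaged 10.59 ± 0.29 in MTO68, 10.52 ± 0.09 in MTO93, 10.19 ± 0.35 in MTO54, 10.12 ± 0.64 in MTO207 and 9.99 ± 0.45 in MTO140 (SD, n = 4 tumours each). Cd74 averaged 10.68 ± 0.09 in MTO68, 10.27 ± 0.21 in MTO93, 9.71 ± 0.59 in MTO54, 9.71 ± 0.81 in MTO207 and 9.70 ± 0.60 in MTO140 (SD, n = 4). The last 3 lines cannot be ordered for Cd74, since their means differ by far less than their SDs. Ciita averaged 5.32 ± 0.08 in MTO93, 5.27 ± 0.29 in MTO207, 4.96 ± 0.45 in MTO68, 4.92 ± 0.55 in MTO140 and 4.86 ± 0.34 in MTO54 (SD, n = 4). Of 28 pairs of neighbouring lines in these orders, 23 differed by less than the larger of their SDs. The 5 that differed by more were MTO68 over MTO93 for H2-Eb1, H2-DMa, H2-DMb1 and Cd74, and MTO93 over MTO54 for H2-Ab1. All 4 tumours of MTO68 were above all 4 of MTO93 for H2-DMa, H2-DMb1 and Cd74, that is for 3 of 7 members and for 9.19% of genes.

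Among the 10 control tumours alone, limma's F test between lines called 0 of 7 members, against 2.8% of genes, and 1 member had an unadjusted p under 0.05. That member was Ciita, with F = 4.18 (unadjusted p = 0.0193, adjusted p = 0.0978, limma). Control tumours of MTO140 and of the 2 parental LAKTP lines were compared to set the LiM type against its parental genotype. H2-Eb1 was at 8.97 and 9.90 in MTO140, against 10.67 and 10.74 in MTO68 and 10.34 and 10.02 in MTO93, a difference of -1.0025 (SE 0.47, limma adjusted p = 0.188). Ciita was at 4.21 and 5.06 in MTO140, against 5.06 and 5.55 in MTO68 and 5.38 and 5.30 in MTO93, a difference of -0.69 (SE 0.24, limma adjusted p = 0.128). Both MTO140 tumours stood below all 4 parental control tumours for 6 of 7 members, H2-DMb1 being the exception, as for 7.8% of genes, though for Ciita the nearest tumours were at 5.0612 in MTO140 and 5.0621 in MTO68. All 7 members had negative differences, -0.63 for H2-DMb1 being the smallest, and limma called 0 of 7, against 0.977% of genes. Single tumours decided these calls. Without MTO68 control replicate 1, H2-DMa at -0.92 and Ciita at -0.81 passed (limma adjusted p = 0.0448 and 0.025) in a fit that called 40.8% of genes, and without MTO140 control replicate 2 Ciita passed at -1.11 (limma adjusted p = 0.0261) in a fit that called 14.4%. Without MTO68 control replicate 2 the differences lay between -1.0042 for Cd74 and -0.57 for Ciita, and none passed. The F test called 1 member without either of them or without MTO68 control replicate 2 (smallest limma adjusted p = 0.0355, 0.0332 and 0.0488), in fits that called 41.9%, 18.2% and 47.1% of genes.

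Control tumours of MTO54, of genotype LAKP, also lay below the mean of MTO68 and MTO93 for all 7 members, by -0.99 for Cd74 to -0.62 for H2-Aa (limma adjusted p = 0.236 to 0.512). None was called, against 1.33% of genes. Those of MTO207, of genotype LAKT, were lower for 6 members, by -0.96 for Cd74 to -0.58 for H2-Aa, and Ciita was at 0.14 (SE 0.24). With all tumours included, limma called 0 of 7 for MTO207, against 0.0386% of genes. With MTO68 control replicate 2 left out, the MTO54 differences ran from -1.0043 for Cd74 to -0.53 for H2-Aa. Those of MTO207 then ran from -0.98 for Cd74 to 0.26 for Ciita. Without MTO207 control replicate 2, H2-Aa was at 0.19 and Cd74 at 0.01, and without control replicate 1 Ciita was at -0.05. These 3 comparisons share the control tumours of MTO68 and MTO93, so their like signs are not separate observations. MTO68 minus MTO93 was positive for 6 members, with H2-DMa at 0.68 (SE 0.37, limma adjusted p = 0.719) and 0.251% of genes called. H2-DMa was at 0.44 and H2-Aa at 0.04 without MTO68 control replicate 2. For MTO54 minus MTO207, Ciita was at 4.36 and 4.92 in MTO54, against 5.66 and 5.27 in MTO207. These groups did not overlap, with MTO54 lower, as for 39% of genes and 1 of 7 members, and the difference was -0.83 (SE 0.28, limma adjusted p = 0.0887), where 0.283% of genes were called and the other 6 members lay between -0.18 and 0.04. It passed without MTO68 control replicate 1 (limma adjusted p = 0.0411) or replicate 2 (limma adjusted p = 0.0408), in fits that called 4019 and 4015 genes (25.8% each).

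Tumours of the same line and treatment often differed more than the groups did. The SD within groups was 0.63 for Cd74 and 0.62 for H2-Eb1, at the 97.08th and 97th percentile of the genes tested, whose median was 0.22. It was 0.49 for H2-DMb1 and H2-Ab1, 0.47 for H2-Aa and 0.40 for H2-DMa, at percentiles from 86.64 to 93.13. Ciita, at 0.31, stood at the 74th percentile. Of the sum of squares over 20 tumours, the part within groups made up 42.9% to 61.8% for the 6 members other than Ciita and 34.2% for Ciita, against 28.8% for the median gene. Treatment within lines made up 4.79% to 12.1% for those 6 members and 40% for Ciita, against 19.7% for the median gene.

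**Figure D3:**
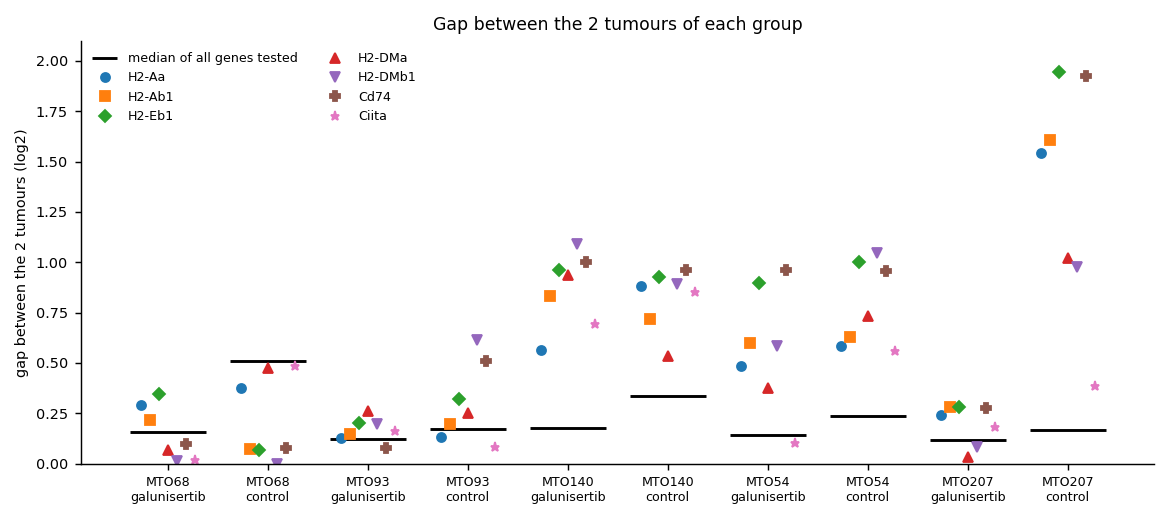
Gap in log2 level between the 2 tumours of each group (y axis) for 7 genes (symbols), in 10 groups (x axis), with the median gap of all genes as a black bar. Gaps of H2-Eb1 and Cd74 reach 1.94 and 1.92 in control tumours of MTO207, where the median gene has a gap of 0.17, and all 7 gaps in the control tumours of MTO68 lie below the 0.51 of its median gene.

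For H2-Aa, H2-Ab1, H2-Eb1, H2-DMa and Cd74 the widest pair was the control tumours of MTO207, whereas H2-DMb1 and Ciita had wider gaps elsewhere. The MTO207 pair differed by 1.54 for H2-Aa, 1.61 for H2-Ab1, 1.94 for H2-Eb1, 1.02 for H2-DMa, 0.98 for H2-DMb1 and 1.92 for Cd74. Ciita differed by 0.39 in the same pair, where the median gene differed by 0.17. The interferon-gamma response score of that pair was 0.84 and -1.92, the leukocyte score 0.41 and -1.10 and the macrophage score 0.22 and -0.85, while the B cell score was 0.23 in both. Array SDs of the pair were 1.46 each. Gaps were wide in all groups of MTO140 and MTO54, where Cd74 differed by 0.96 to 1.00 (log2) between tumours of a group. In 8 of 10 groups the 6 members other than Ciita were all higher in the same tumour of the pair, and in 6 of 10 groups all 7 were. The SD over all tumours was smaller in the treated than in the control arm for 7 of 7 members, with 0.46 over 10 treated and 0.77 over 10 control tumours for Cd74, and it was smaller for 56.9% of all genes. That difference in spread was not tested.

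The 6 members other than Ciita rose and fell together across tumours. Of the 21 pairs of members, the 15 without Ciita had Pearson's r between 0.84 and 0.98 and Spearman's rho between 0.76 and 0.97 over 20 tumours, with adjusted permutation p-values from 1.5e-05 to 2.8e-05. After the line means were subtracted, r lay between 0.85 and 0.99, and without the 2 tumours farthest from the median between 0.78 and 0.97. Within single lines of 4 tumours r ranged from 0.25 to 1.00. H2-Ab1 and H2-Eb1, for instance, had r = 0.98 and rho = 0.95, each with a permutation p of 1e-05, the smallest that the permutations can give. Values of a pair come from the same arrays, so whatever marks an array as a whole enters both. The permutations ignored the lines, so their p-values treat the 20 tumours as independent.

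Ciita followed the others more loosely. Its 6 pairs had r between 0.29 and 0.48 and rho between 0.32 and 0.56, with adjusted permutation p-values from 0.0412 to 0.219, and r without the 2 farthest tumours between 0.13 and 0.38. With H2-Aa, the closest of them, r was 0.48 and rho 0.53 (permutation p = 0.0314 and 0.0169). With line means subtracted r was between 0.38 for Cd74 and 0.65 for H2-DMa. Within single lines r ranged from -0.38 to 0.98. Whether r was lower with Ciita than without it was not tested.

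Each member was then set against the scores of 17 gene lists and against the SD of the array, which makes 126 relations. The lists, too, were chosen with earlier results of these data known. The interferon-gamma response list, with the chemokine gene Cxcl9 and guanylate-binding protein genes among its 13 measured members, followed the 6 members most closely. Their r with it lay between 0.81 and 0.95, rho between 0.73 and 0.91 and r with line means subtracted between 0.77 and 0.95 (adjusted permutation p = 0.00021 for each). For Cd74, r was 0.95 and rho 0.91 (permutation p = 1e-05 each, the smallest that the permutations can give), 0.92 without the 2 farthest tumours and 0.40 to 0.99 within lines. The relation did not hold in MTO68, where r was negative for 5 of the 6 members, from -0.74 for H2-Aa to -0.13 for H2-DMb1, and 0.40 for Cd74. In each of the other lines r was between 0.78 and 0.99 for all 6. The array SD had r between -0.18 and 0.18 with these 6 members, the smallest of their adjusted permutation p-values being 0.579.

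**Figure D4:**
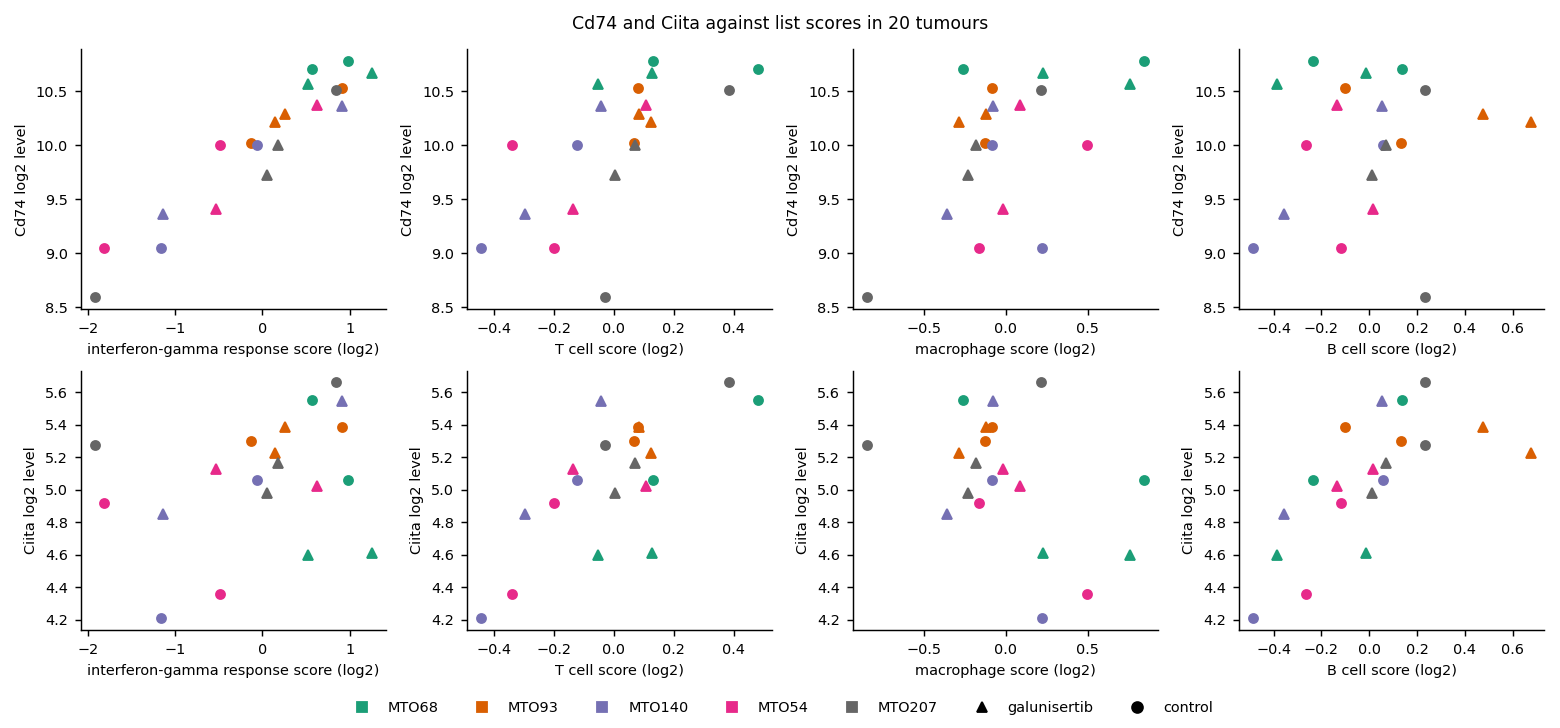
Log2 level of Cd74 (top) and Ciita (bottom) against the score of 4 gene lists (x axes, mean log2 level of the list's genes, each centred) in 20 tumours, coloured by line, with triangles for galunisertib and circles for control. Cd74 follows the interferon-gamma response score (r = 0.95) and not the B cell score (r = 0.14), and Ciita follows the B cell score (r = 0.68) and the T cell score (r = 0.73) rather than the interferon-gamma response score (r = 0.32).

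Cell type markers followed the 6 members to differing degrees. With the T cell score r was between 0.59 and 0.73 (adjusted permutation p = 0.00349 to 0.0256), and for Cd74 it was 0.66 (rho 0.74, 0.55 without the 2 farthest tumours, 0.61 with line means subtracted, 0.07 to 0.99 within lines). In MTO93 r with the T cell score was negative for 4 of the 6 members, from -0.60 for H2-Aa to -0.30 for H2-Eb1. With the general leukocyte score r was between 0.59 and 0.76 (adjusted permutation p = 0.0014 to 0.0301), and in MTO68 it was negative for 5 of the 6. The dendritic cell score gave 0.36 to 0.67 and the macrophage score 0.40 to 0.56, and both sets held pairs that did not pass, with largest adjusted permutation p-values of 0.217 and 0.169. With the B cell score r was between 0.08 and 0.27 (smallest adjusted permutation p = 0.394). The epithelial score gave -0.36 to -0.04, the fibroblast and matrix score -0.27 to -0.15 and the endothelial score -0.31 to -0.19, and none of these passed.

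Ciita tracked other lists. Its r was 0.85 with the other class II chains and accessory chains (rho 0.86, adjusted permutation p = 0.00036), 0.78 with costimulatory and checkpoint ligands (rho 0.77, adjusted permutation p = 0.0011), 0.73 with T cell markers (rho 0.60, adjusted permutation p = 0.00349), 0.70 with follicle and lymphoid tissue genes (rho 0.71, adjusted permutation p = 0.00417) and 0.68 with B cell markers (rho 0.80, adjusted permutation p = 0.00564). Unadjusted permutation p-values of these 5 relations were at most 0.00085 for r and 0.006 for rho. With line means subtracted r was 0.85, 0.81, 0.85, 0.63 and 0.56 in the same order, and without the 2 farthest tumours 0.76, 0.64, 0.59, 0.61 and 0.70. The upstream interferon-gamma axis had r = -0.59 with Ciita (rho -0.54, adjusted permutation p = 0.0288). Within MTO93 the sign was the opposite for each of them, and r there was -0.58 with B cell and -0.68 with T cell markers. Ciita also fell as the SD of the array rose, with r = -0.73 and rho = -0.70 (adjusted permutation p = 0.00309), -0.61 without the 2 farthest tumours, -0.72 with line means subtracted and -0.95 to 0.33 within lines. Its r with the endothelial score was -0.71 (adjusted permutation p = 0.00369). Ciita itself was dim, with a mean level of 5.06 near the array medians. Mean levels ran from 4.98 for H2-Ob to 8.22 for H2-DMb2 among the other class II chains and accessory chains. Those of B cell markers ran from 4.29 for Ms4a1 to 6.41 for Fcrla. The parts of background signal and of the array's spread in the relations of Ciita to these lists were not tested. With the spread as a covariate, added after seeing the data, the treatment difference of Ciita over 5 lines was 0.12 and did not pass.

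**Figure D5:**
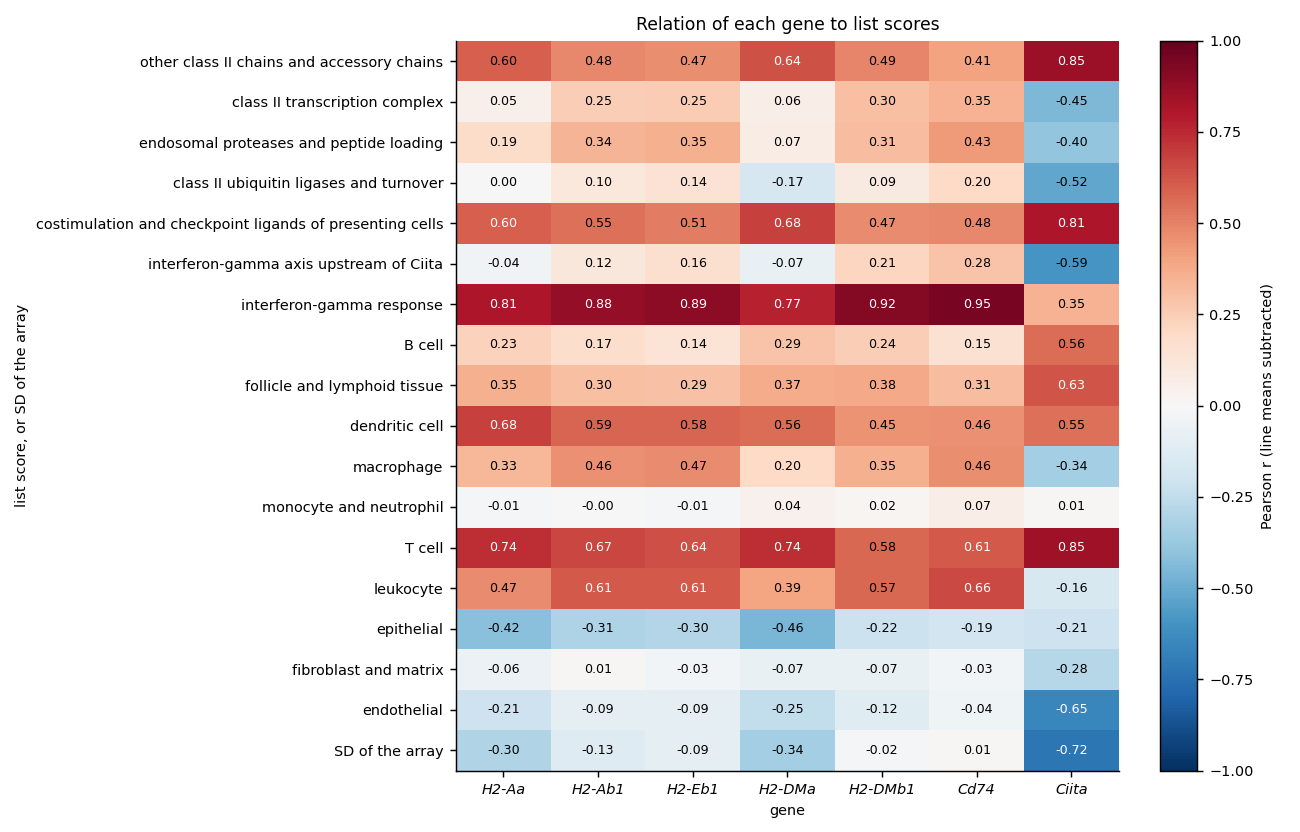
Pearson's r, with line means subtracted, between each of 7 genes (columns) and 17 list scores or the SD of the array (rows) over 20 tumours. The interferon-gamma response row runs from 0.77 to 0.95 for the 6 genes other than Ciita and is 0.35 for Ciita, and the row of the array SD is -0.72 for Ciita.

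The genes whose levels were most like the members' mean centred level, by r over 20 tumours after line means were subtracted, were H2-DMb2 at 0.93, Gbp10 at 0.92, Iigp1, Igtp, Cxcl10, Gbp2, Cxcl9, Tgtp1, Psmb9 and Ido1 at 0.86. For the members themselves that r was 0.94 to 0.98 for the 6 and 0.60 for Ciita, each being part of the mean. H2-DMb2 is a near copy of H2-DMb1, and its probe set may bind both transcripts, so it is uncertain as a separate gene. Without subtraction, r was 0.93 for H2-DMb2, 0.79 to 0.92 for the next 8 and 0.09 for Ido1, whose likeness therefore lies within lines. Ido1 encodes an enzyme that degrades tryptophan, and Psmb9 encodes a subunit of the immunoproteasome. Iigp1, Igtp, Cxcl10, Gbp2, Cxcl9, Tgtp1 and Psmb9 belong to the interferon-gamma response list, so their likeness is not separate from that of the list. Cxcl9 lay between 7.95 and 10.20 in treated tumours (median 8.87) and between 4.86 and 10.18 in control tumours (median 8.70.) It differed by 1.01 (SE 0.59, limma adjusted p = 0.686) over 5 lines, and none of the 10 passed.

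The rest of the pathway was examined in the same way over the 5 lines. Limma called 0 genes of each list, as it called 0% of all genes tested, so these counts do not set the lists apart. Of the other class II chains and accessory chains, 2 of 5 had higher means after treatment, and the median difference was -0.02. The probe set for H2-Ea lay between 4.75 and 5.78 in treated tumours, against 4.68 and 6.01 in control tumours, with a difference of -0.07 (SE 0.12), and whether this signal is RNA of H2-Ea itself was not tested. H2-Ob, a chain of the H2-O protein that restrains H2-M, differed by -0.07 (SE 0.09), and H2-DMb2 by 0.17 (SE 0.19). Of the class II transcription complex, 6 of 9 were higher, with a median of 0.06, with Irf8 at 0.24 (SE 0.16) and Spi1 at 0.08 (SE 0.08), which encode transcription factors of myeloid and B cells. Of the endosomal proteases, 8 of 9 were higher, with a median of 0.07. Sppl2a, whose protease clears the last fragment of Cd74, differed by 0.25 (SE 0.15), and the lysosomal endopeptidase gene Lgmn by 0.19 (SE 0.16). Of the regulators of class II turnover, 2 of 3 were higher, with Marchf8, a ubiquitin ligase gene, at 0.22 (SE 0.18) and Cd83 at 0.11 (SE 0.07).

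Costimulatory and checkpoint ligands were higher for 1 of 7 genes, with a median of -0.05, Cd80 at -0.11 (SE 0.12) and Tnfsf4 at -0.14 (SE 0.09). Upstream of Ciita, all 5 measured genes of the interferon-gamma axis had higher means, with a median of 0.17, and the receptor chain genes Ifngr1 and Ifngr2 were at 0.21 (SE 0.15) and 0.25 (SE 0.18). Socs1 lay below the limit for dim signals. The interferon-gamma response list had 13 of 13 means higher and a median of 0.39, with Psmb9 at 0.30 (SE 0.19), and 0 of 13 had an unadjusted limma p under 0.05. The number of all genes with such a p is the one given beside the members for the same comparison. All 13 were measured on the same arrays, so their like signs are not separate observations. How far these genes varied together was not tested. The same list was higher for 7 of 13 genes in MTO68, 3 of 13 in MTO93, 11 of 13 in MTO140 and 13 of 13 in both MTO54 and MTO207. Its score differed by 2.77 between the 2 control tumours of MTO207. The part of the lower of these tumours in the counts and in the median over 5 lines was not tested.

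Cell type lists over 5 lines are given as counts of genes with higher means and medians, against 50.3% of genes and 0.0012 over all genes. The 2 genes named for each list are those of smallest limma p, whichever way they moved. They need not stand for the list, and both named T cell genes were lower although most T cell markers were higher. B cell markers were higher for 7 of 9 (median 0.09, with Cd37 at 0.26 and Ms4a1 at 0.15), follicle and lymphoid genes for 4 of 5 (0.08, with Cxcl13 at 0.49 and Ltb at 0.08) and T cell markers for 5 of 8 (0.04, with Thy1 at -0.21 and Cd5 at -0.08). Dendritic cell markers were higher for 3 of 10 (median -0.02, with Fscn1 at -0.18 and Ccl22 at 0.05), macrophage markers for 4 of 12 (-0.05, with Csf1r and Msr1 at -0.21 each), monocyte and neutrophil markers for 3 of 7 (-0.04, with Ccr2 at -0.10 and Plac8 at 0.15) and leukocyte genes for 4 of 6 (0.06, with Itgb2 at -0.23 and Coro1a at 0.18). Epithelial markers were higher for 10 of 10 (median 0.25, with Cldn7 at 0.31 and Krt8 at 0.24). Fibroblast and matrix genes were higher for 0 of 11 (-0.73, with Eln at -1.56 and Col3a1 at -0.62) and endothelial genes for 1 of 7 (-0.25, with Emcn at -0.34 and Plvap at -0.22). The class II members had a median of 0.05, and their difference from any of these lists was not tested. In the control tumours, the single list gene that differed between lines was the epithelial gene Vil1 (F = 8.65, limma adjusted p = 0.0433).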

How the data were processed

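The deposited values were log2 levels per probe set. The submitters' processing notes name RMA and affy, with version numbers not given in the sources used here. Background correction, quantile scaling and probe summary by RMA can shrink differences of dim genes. Of 45141 probe sets, 28898 had 1 gene symbol, 551 several and 15588 none. The probe set of highest mean was kept per gene (17097), and genes above 4.16, the 25th percentile, on at least 2 arrays were tested (15556).

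The limma package (3.58.1, R 4.3.3) fitted treatment over 5 lines with the line as a block, and other comparisons in a model with a mean for each of 10 groups. Limma p-values of differences are two-sided, and F tests are named as such. Adjusted limma p-values are by Benjamini-Hochberg across the genes tested, with 0.05 as threshold. Exact permutation p-values are not adjusted. Within lines limma p-values measure the spread between the 2 tumours of a group, pooled over all 10 groups. Over 5 lines they also measure the spread of the effect between lines. Correlations used 100000 permutations of the 20 tumours without regard to line, so their p-values treat tumours of a line as independent. Benjamini-Hochberg adjustment was over 21 pairs or 126 relations. The label LY was read as galunisertib. The members and the 17 lists were chosen with earlier results of these data known. Named genes are the members, of each list the called genes or else the 2 of smallest p over 5 lines, and the 10 most like the members. Alternatives were filters, other probe sets, centring, quantile normalization, eBayes without trend, array weights, the treatment of lines and the omission of tumours or lines. The model was also run on simulated data with independent noise in each gene and an effect that was the same in every line. The members varied together, so that run does not vouch for their results.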

Additional observations from a re-analysis of the deposited data

Results flagged for a closer look

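The galunisertib effect on Ciita stood out because all tumours moved one way in some lines and the opposite way in another. Both treated tumours were lower than both control tumours in MTO68, with a difference of -0.70, as for 23.2% of genes. They were also lower in MTO207, with a difference of -0.40, as for 31.6% of genes. Both were higher in MTO54, with a difference of 0.44, as for 17.8% of genes (log2 scale, 2 tumours a group). The difference between lines was tested with limma's F test over the 5 effects and did not pass over all genes (F = 3.64, adjusted p = 0.563). Its other probe sets differed by -0.57 and -0.42 in MTO68, -0.32 and -0.03 in MTO207, and 0.07 and -0.03 in MTO54, so the opposite directions rest on the first probe set for MTO54. In 49 sets of 4 or 10 tumours examined, 0 held a tumour that stood apart by Dixon's criterion, where chance gives about 1 in 20.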

How the results depend on the processing

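All 7 members stayed uncalled in the treatment comparison over 5 lines under every alternative run. Of 2611 alternative values of single members, 2490 kept direction and side of the threshold, 111 changed sign and 10 passed where the reported value had not. Of 372 counts of called members, 9 moved, all but 1 with a tumour left out. The cause was not tested in any case.

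With the next probe set per gene, H2-Aa was 0.0284 in MTO68, -0.12 in MTO207 and 0.11 for MTO54 minus MTO207, H2-Ab1 0.0234 for MTO54 minus MTO207, and Ciita -0.0825 for MTO207 minus the parental lines and 0.17 for MTO68 minus MTO93. With the mean of probe sets, H2-Aa was -0.0624 in MTO207 and Ciita 0.12 for MTO68 minus MTO93. With arrays centred on their median, H2-DMa was 0.01 and Ciita 4e-04 over 5 lines, and for MTO54 minus MTO207 H2-Aa was 0.11, H2-Ab1 0.13, H2-DMa 0.10 and Cd74 0.12. With quantile normalization, H2-Aa was -0.0809 and H2-Eb1 -0.0041 over 5 lines, H2-Ab1 0.0018 in MTO93, H2-Aa -0.17 and H2-Eb1 -0.0965 in MTO207, and H2-Eb1 -0.42 for MTO54 minus MTO207. With array weights, H2-DMa was 0.11 over 5 lines, and 1 member, Ciita, was called for MTO54 minus MTO207 at -0.83, in a fit that called 2955 genes (19%). Over 5 lines, H2-DMa was 0.0921 and Ciita 0.14 without line MTO68, H2-DMa 0.0011 without MTO93, H2-Aa -0.0234 without MTO140 and -0.0382 without MTO54, and H2-DMa 0.0175 and Ciita 0.0654 without MTO207. With the array spread as a covariate, added after seeing the data, H2-DMa was 0.05 and Ciita 0.12.

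With 1 tumour left out in turn, the lowest and highest differences spanned 0 in these cases. Over 5 lines they were H2-Aa -0.0854 to 0.14, H2-Ab1 -0.0701 to 0.16, H2-Eb1 -0.0363 to 0.24, H2-DMa -0.12 to 0.0653, Ciita -0.13 to 0.0559. In MTO93 they were H2-Ab1 -0.14 to 0.0557, H2-Eb1 -0.21 to 0.11, H2-DMa -0.22 to 0.0396, H2-DMb1 -0.23 to 0.39, Cd74 -0.28 to 0.23, Ciita -0.12 to 0.043. In MTO140 they were H2-Aa -0.21 to 0.67, H2-Ab1 -0.21 to 0.62, H2-Eb1 -0.14 to 0.82, H2-DMa -0.0454 to 0.89, H2-DMb1 -0.24 to 0.85, Cd74 -0.16 to 0.84. In MTO54 they were H2-Ab1 -0.0512 to 0.58, H2-Eb1 -0.11 to 0.89, H2-DMa -0.17 to 0.56, H2-DMb1 -0.13 to 0.92, Cd74 -0.12 to 0.85. In MTO207 they were H2-Aa -0.70 to 0.84, H2-Ab1 -0.60 to 1.00, H2-Eb1 -0.80 to 1.15, H2-DMa -0.67 to 0.35, H2-DMb1 -0.34 to 0.64, Cd74 -0.66 to 1.27. For MTO207 minus the parental LAKTP lines they were H2-Aa -1.36 to 0.19, H2-Ab1 -1.48 to 0.13, H2-Eb1 -1.87 to 0.0775, Cd74 -1.92 to 0.005, Ciita -0.0504 to 0.34. For MTO68 minus MTO93 they were Ciita -0.28 to 0.21. For MTO54 minus MTO207 they were H2-Aa -0.81 to 0.73, H2-Ab1 -0.82 to 0.79, H2-Eb1 -0.94 to 1.01, H2-DMa -0.55 to 0.47, H2-DMb1 -0.70 to 0.35, Cd74 -0.99 to 0.93. The number of called members then ranged from 0 to 1 in MTO68, in the F test between lines and for MTO54 minus MTO207, and from 0 to 2 for MTO140 minus the parental lines. Leaving out a tumour of a pair leaves 1, which is taken to vary like the other groups. Calls over all genes moved widely, from 40 to 8323 in MTO68 and from 0 to 43 over 5 lines. No paired analysis was possible because the labels give no replicate numbers that join treated and control tumours.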
